A study of Mus musculus with 3 samples.

Results

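The transcriptome of untreated mouse epiblast stem cells (EpiSCs) was described from 1 RNA-seq library, labelled NT, and all genes with a row in its table were taken. There were 15623 gene identifiers of the 17209 listed over the 3 libraries of the series, and summing identifiers that share a symbol left 15617 genes. The cells were of strain 129 and labelled passage 1. They had been grown on gelatin in serum with IWR1, a tankyrase inhibitor that dampens Wnt signalling, and Y27, an inhibitor of the kinases Rock1 and Rock2, and both inhibitors were taken away overnight before collection. "Untreated" therefore means cells recently released from both inhibitors, and the number of dishes or cell lines behind the RNA is not stated in the labels. The other libraries, from cells treated for 12 h with IWR1 at 2 µM or with Y27 at 0.5 µM, served only to show which genes the annotation held. There was 1 library per group, so no value below has a replicate check and no test was run. Levels are FPKM, reads per kilobase of transcript scaled to the depth of the library. Ranges after a level or a ratio are exact 95% Poisson or conditional binomial intervals of the read counts and cover counting error only; the range after a rank is that of the ends of the level's interval with all other genes held.

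EpiSCs are pluripotent cells derived from the epiblast once the embryo has implanted, and they grow as flat epithelial sheets. They share the core factors Pou5f1 (Oct4), Sox2 and Nanog with naive embryonic stem cells, which resemble the epiblast before implantation. They differ from naive cells in depending on FGF and on Nodal or Activin signals rather than on LIF, and in cultures with active Wnt signalling some of the cells express genes of the primitive streak, where mesoderm and endoderm form. In a library from many cells, fewer cells with a transcript and less transcript per cell cannot be told apart.

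The library held 5767550 estimated reads on genes, of which 98.5% lay on protein-coding genes. Of 21900 protein-coding genes in the RefSeq table, 65.9% were listed. The median listed gene stood at 6.16 FPKM with a count of 104, the quartiles were 0.97 and 20.7 FPKM, and the highest gene reached 5502 FPKM. Of the listed genes, 74.7% (11671) were at 1 FPKM or more, 40.2% (6285) at 10 or more and 4.95% (773) at 100 or more. Over all 21900 protein-coding genes, whether listed or not, the shares were 50.7%, 28.0% and 3.45%, and the median, with unlisted genes set to 0, was 1.12 FPKM. A gene with a row in another table but none in NT was taken as a count of 0, which allows up to 3 counts, or 0.520 CPM (counts scaled to the depth of the library). Genes with no row in any of the tables used may be outside the annotation; in the counts and medians of lists they stand among the members not at 1 FPKM, which can lower both.

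**Figure D1:**
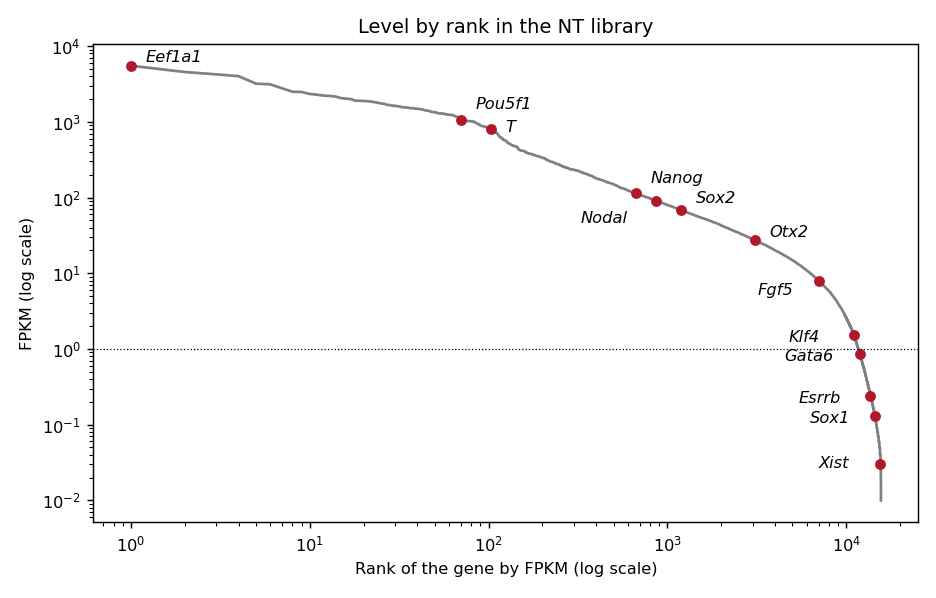
FPKM of each listed gene (vertical, log scale) against its rank in the NT library (horizontal, log scale), with 13 genes marked in red and a dotted line at 1 FPKM. The curve falls from Eef1a1 at 5502 through Pou5f1 at 1069.7 and T at 808, and Esrrb, Sox1 and Xist lie under the line.

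The most abundant transcripts were those of protein synthesis, glycolysis, the cytoskeleton and protein folding. Eef1a1, the factor that brings aminoacyl-tRNA to the ribosome, led with 5502 FPKM (5457 to 5547), ahead of the glycolytic enzyme Gapdh at 4543 (4496 to 4590). Then came the ribosomal protein genes Rpl41 at 4229 and Rps2 at 4003, the cytoplasmic actin gene Actg1 at 3189 and Ppia, which encodes cyclophilin A, at 3127. Of the 20 highest genes, 10 encode ribosomal proteins, and the others include the glycolytic enzymes Pkm (2494) and Eno1 (2193), the chaperones Hsp90ab1 (2476) and Hspa8 (1894), polyubiquitin Ubb (2148) and prothymosin Ptma (2020). The order is not resolved throughout: for 9 of the 19 pairs of neighbours among these 20, the interval of the ratio of levels included 1, as for Pkm and Hsp90ab1. Actg1 was 2.05 times the other cytoplasmic actin gene, Actb (2.01 to 2.09), which was at 1555. Of the 20 genes 10 had whole counts; the others, Eef1a1 and Gapdh among them, and also Pou5f1, had fractional counts, so reads were shared with similar sequences and their levels are less certain than the intervals show. These 20 genes held 11.2% of the summed FPKM. The 20 genes with the most reads, in which long transcripts weigh more, held 7.88% of the counts, and 12 genes stood in both sets. By reads, Flna, which crosslinks actin (319 FPKM, 15562 counts), the lipid desaturase gene Scd2 (476 FPKM) and the non-muscle myosin gene Myh9 (297 FPKM) entered the 20. Of the summed FPKM, 50% lay in 382 genes, and 50% of the counts lay in 874 genes.

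Glycolysis was present in full: all 20 listed enzymes and glucose transporters were at 1 FPKM or more, 13 of them at 100 or more, with a median of 353 FPKM and 2.99% of all counts. Where several genes encode the same step, levels were unequal. Ldha, which makes lactate, was at 1298 FPKM and Ldhb at 116. Among enolases Eno1 was at 2193, Eno3 at 28.4 and the neuronal form Eno2 at 1.66, and among hexokinases Hk2 was at 59.8 and Hk1 at 5.58. The glucose transporter Slc2a3 stood at 584 FPKM, 1.22 times Slc2a1 at 478 (ratio 1.19 to 1.26), and these were the highest of 252 listed solute carrier genes. The lactate exporter Slc16a3 was at 124 FPKM. The pairs of genes compared by a ratio, 43 in all, were chosen after the levels were seen, as were some of the list and family members named beyond the highest.

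Ribosomal protein genes of the cytosol formed the most abundant complex. Of 85 annotated genes 84 were listed, and 81 were at 1 FPKM or more, with a median of 1238 and quartiles of 875 and 1541 among those 81, holding 7.55% of counts and 21.1% of summed FPKM. The 3 listed genes under 1 FPKM were the paralogues Rpl10l (0.16), Rpl39l (0.44) and Rpl32l (0.75). The lowest of the 81 was Rps15a at 36.8, while 2 of its pseudogenes, Rps15a-ps4 and Rps15a-ps6, were listed at 141 and 115 FPKM, so the level of Rps15a is uncertain; whether reads were divided between these copies was not tested. The mitochondrial ribosome stood far lower, with all 75 genes listed at 6.42 to 171 FPKM and a median of 42.9.

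Other complexes were also present nearly whole, at levels of their own. The 8 subunits of the chaperonin TRiC, which folds actin and tubulin, lay between 193 (Cct8) and 352 FPKM (Cct5), and the 6 MCM helicase subunits, which open DNA at replication origins, lay between 73.8 (Mcm4) and 192 (Mcm7). All 17 ATP synthase genes were at 126 or more, led by the catalytic subunit Atp5b at 1050.1, and 36 of 37 complex I genes were at 32.0 or more with a median of 76.2. Of 39 proteasome genes, 37 were at 1 FPKM or more with a median of 153. Among these the constitutive catalytic subunits Psmb6 and Psmb5 were at 386 and 299, the inducible subunits Psmb8 and Psmb9, which replace some of them in the immunoproteasome, were at 90.8 and 11.7, and the thymus subunit Psmb11 was at 0.2 FPKM. In each of these complexes nearly every gene passed 1 FPKM, while in the Hox, Pax, keratin and claudin families in the plot of complexes and families most did not.

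**Figure D2:**
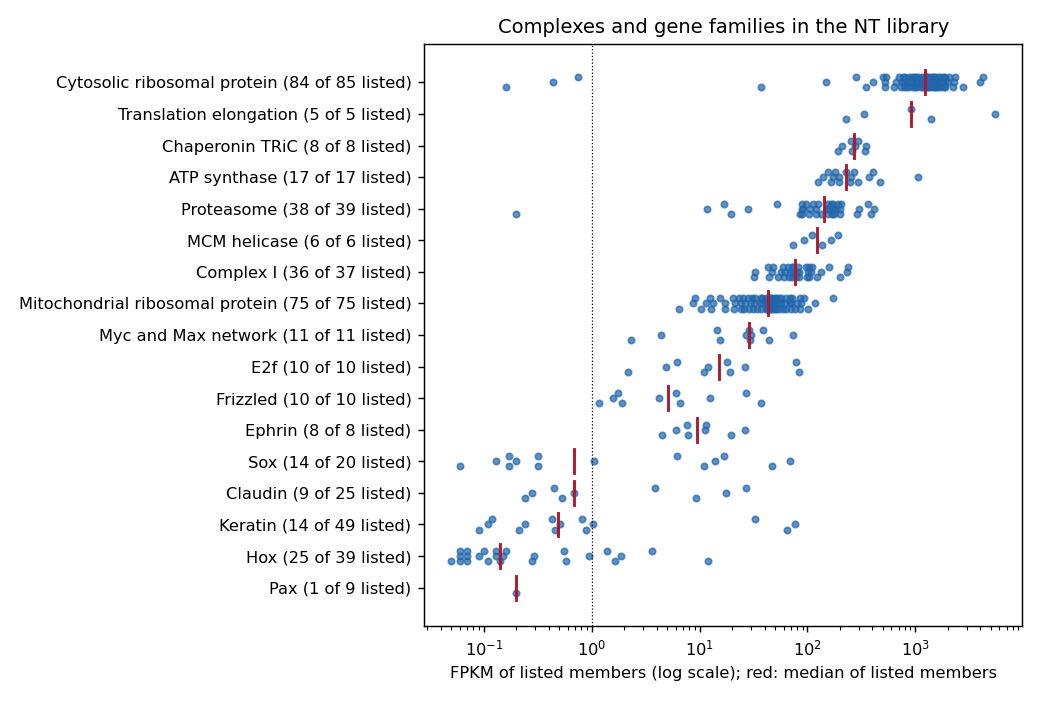
FPKM (horizontal, log scale) of each listed member, as a point, of 17 complexes and gene families, with the median of the listed members as a red bar and a dotted line at 1 FPKM. Members of the complexes at the top cluster, with a median of 1231 for cytosolic ribosomal proteins, while most Hox genes lie under 1 FPKM.

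Of the transcription factor families searched, zinc finger genes of the Zfp series apart, 467 genes were listed, and 313 (67.0%) were at 1 FPKM or more, against 74.7% of all listed genes, with a median of 4 FPKM against 6.16 for all listed genes. Only 10 reached 100 FPKM, and together the 467 held 2.22% of the counts. Pou5f1, the POU factor that defines pluripotent cells, was the highest at 1069.7 FPKM (1047 to 1093) from 8267 counts, rank 70 of all genes (70 to 72). T (Brachyury), the T-box factor of the primitive streak, came next at 808 FPKM (792 to 825) from 9542 counts, rank 103 (100 to 104), so Pou5f1 was 1.32 times T (1.28 to 1.36). The other factors at 100 FPKM or more were the chromatin protein Hmga1 (494), the stress and cell cycle regulator Trp53 (349), Irf1 of the interferon response (194), the stress factor Atf4 (173), Tead2, partner of the Hippo cofactor Yap (165), the Wnt target Sp5 (131), the FGF target Etv5 (114) and Nanog (113).

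Sox2, partner of Pou5f1 on DNA, stood at 68.4 FPKM (64.1 to 72.8) and rank 1197, so Pou5f1 was 15.6 times higher (14.6 to 16.7) and Nanog 1.66 times higher (1.53 to 1.80). Between Nanog and Sox2 lay Mbd3 of the NuRD complex (94.6), the Smad corepressor Tgif1 (91.5), Foxo4 (89.3), Nfe2l1 (89.1), the cholesterol regulator Srebf2 (87.7), E2f4 and its partner Tfdp1 (84.3 and 77.5), Utf1, a chromatin factor of pluripotent cells (83.2), and Mycn (74.1). For 11 of the 19 neighbouring pairs among the 20 highest factors the ratio interval included 1, so much of the order below Nanog is not resolved. Ranked by CPM, 15 of these 20 remained.

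**Figure D3:**
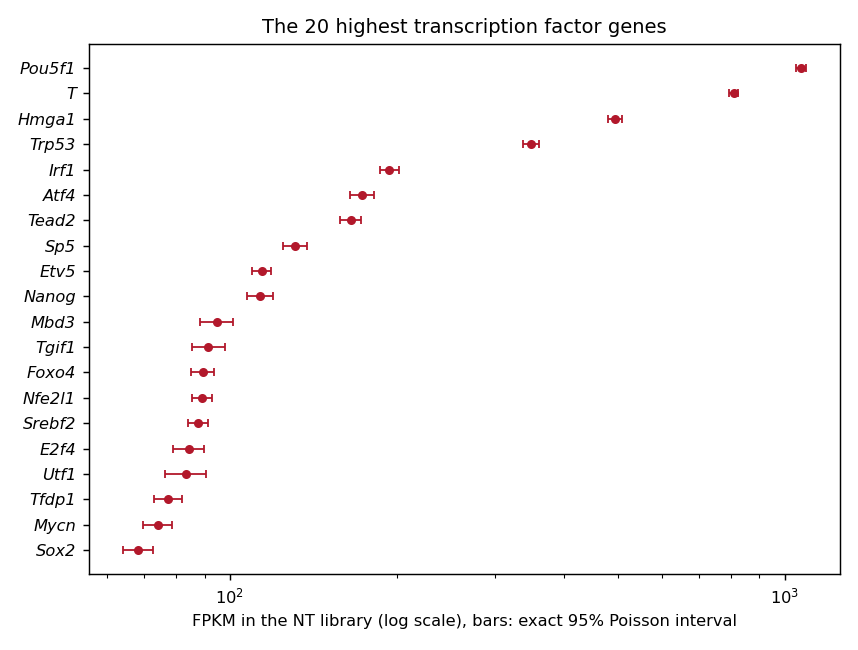
FPKM (horizontal, log scale) of the 20 highest transcription factor genes in the NT library, with exact 95% Poisson intervals as bars. Pou5f1 and T stand apart at 1069.7 and 808, and the bars of neighbours from Mbd3 to Srebf2 overlap.

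The promoters of the highest transcription factor genes and of a gene at each end of the range are shown to put sequence beside level. The windows are the 250 bases before the first transcription start of each gene in RefSeq (GRCm38.p6, another build than that of the files), 5′ to 3′ on the strand of the gene, with CpG dinucleotides in capitals. They are Rps2 at chr17:24719813-24720062 (plus strand), Pou5f1 at chr17:35505782-35506031 (plus strand), T at chr17:8434173-8434422 (plus strand) and Gfap, an astrocyte gene with a count of 0 here, at chr11:102897201-102897450 (minus strand).
Rps2: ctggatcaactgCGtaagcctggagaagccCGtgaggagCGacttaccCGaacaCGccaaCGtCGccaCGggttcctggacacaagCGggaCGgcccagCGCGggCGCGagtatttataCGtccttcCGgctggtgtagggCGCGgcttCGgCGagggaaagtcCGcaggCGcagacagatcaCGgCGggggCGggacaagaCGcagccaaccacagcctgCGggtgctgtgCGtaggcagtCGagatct
Pou5f1: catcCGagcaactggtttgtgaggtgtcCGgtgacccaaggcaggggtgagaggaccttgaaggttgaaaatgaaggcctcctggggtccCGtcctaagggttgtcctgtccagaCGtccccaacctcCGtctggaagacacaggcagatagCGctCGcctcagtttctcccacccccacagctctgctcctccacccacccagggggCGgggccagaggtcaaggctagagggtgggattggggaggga
T: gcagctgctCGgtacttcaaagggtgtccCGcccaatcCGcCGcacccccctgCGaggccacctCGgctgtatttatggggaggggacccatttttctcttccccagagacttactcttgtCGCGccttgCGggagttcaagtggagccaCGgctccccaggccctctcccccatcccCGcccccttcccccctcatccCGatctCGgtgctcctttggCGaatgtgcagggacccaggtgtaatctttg
Gfap: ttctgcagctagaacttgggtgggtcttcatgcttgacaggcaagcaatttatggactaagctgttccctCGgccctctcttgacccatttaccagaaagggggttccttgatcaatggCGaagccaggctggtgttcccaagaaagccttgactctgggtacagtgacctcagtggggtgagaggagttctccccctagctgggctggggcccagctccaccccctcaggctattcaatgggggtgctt
These 4 were chosen after the levels were seen. They held 29, 8, 14 and 2 CpG dinucleotides, so CpG number did not follow level among them: Pou5f1, at 1069.7 FPKM, had fewer than the median of 10 over all 17492 protein-coding promoters of the table (quartiles 3 and 19). Over genes at 10 FPKM or more the median was 17 (quartiles 12 and 24), from 5030 of 6138 genes with a window. Of motifs searched on both strands as exact letters, CCGGAAG, the core of ETS factor sites, was in 17.1% of those 5030 windows and in 9.13% of all, and it was in the Rps2 window. GGGCGG, the GC box, was in 63.9% and 42.7%, and TATAAA, the TATA box, in 5.65% and 12.4%. CCAAT was in 37.4% and 36.3%. A match describes the letters and shows no binding.

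The label of the cells was set beside marker lists. These were chosen with earlier results of these data known, and some genes, such as Dnmt3b, stand in more than 1 list. They are therefore no independent check of the label. Each share is to be read against the 50.7% of protein-coding genes at 1 FPKM or more. Of 16 core pluripotency genes 14 were at 1 FPKM or more, with a median of 59.7. Besides Pou5f1, the members above Sox2 were the Nodal co-receptor Tdgf1 (248), the let-7 inhibitor Lin28a (200), Nanog (113), L1td1, an RNA-binding protein of pluripotent cells (92.9), the de novo DNA methyltransferase Dnmt3b (88.0) and Utf1. Sall4 (51.1), Trim71 (29.7) and Sall1 (19.3) were among those below it. Lin28a was 19.3 times its paralogue Lin28b (17.2 to 21.7). The 2 members under 1 FPKM were Dppa4 (0.45, 4 counts) and Dppa2 (0.27, 3 counts), a pair of chromatin factors of early embryos.

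All 18 primed epiblast genes were at 1 FPKM or more, at 6.23 to 219 with a median of 26.9. The highest were the kinase gene Pim2 (219), Tead2 (165), Etv5 (114), Nodal (90.0) and Dnmt3b (88.0). Otx2, a homeobox factor of the epiblast after implantation and of the forebrain, stood at 27.1 FPKM and the POU factor Pou3f1 at 25.9. Fgf5, a growth factor gene widely used to mark primed epiblast, was among the lowest of the list at 7.93 FPKM (6.55 to 9.49), though above the 6.16 of the median listed gene.

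Naive pluripotency genes were mostly near or under the threshold: 6 of 18 were at 1 FPKM or more, and the median was 0.29 with unlisted members set to 0. Zfp42 (Rex1), a marker of naive cells, had a count of 0. Esrrb, a nuclear receptor of naive cells, was at 0.24 FPKM (6 counts), Nr5a2 at 0.05 and Nr0b1 at 0.1 (1 count each), while Dppa3, Tcl1 and Zscan4c had no row in any of the tables used. Klf4, a factor used in reprogramming, was at 1.52 FPKM (1.00 to 2.21), Tfcp2l1 at 1.49, Klf2 at 3.64 and Fgf4 at 1.08. The exceptions were Klf5 at 29.6 (26.3 to 33.2), which was 19.5 times Klf4 (13.1 to 30.05), and the secreted phosphoprotein Spp1 at 9.87. At 2 FPKM as the threshold, 3 of the 18 remained.

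**Figure D4:**
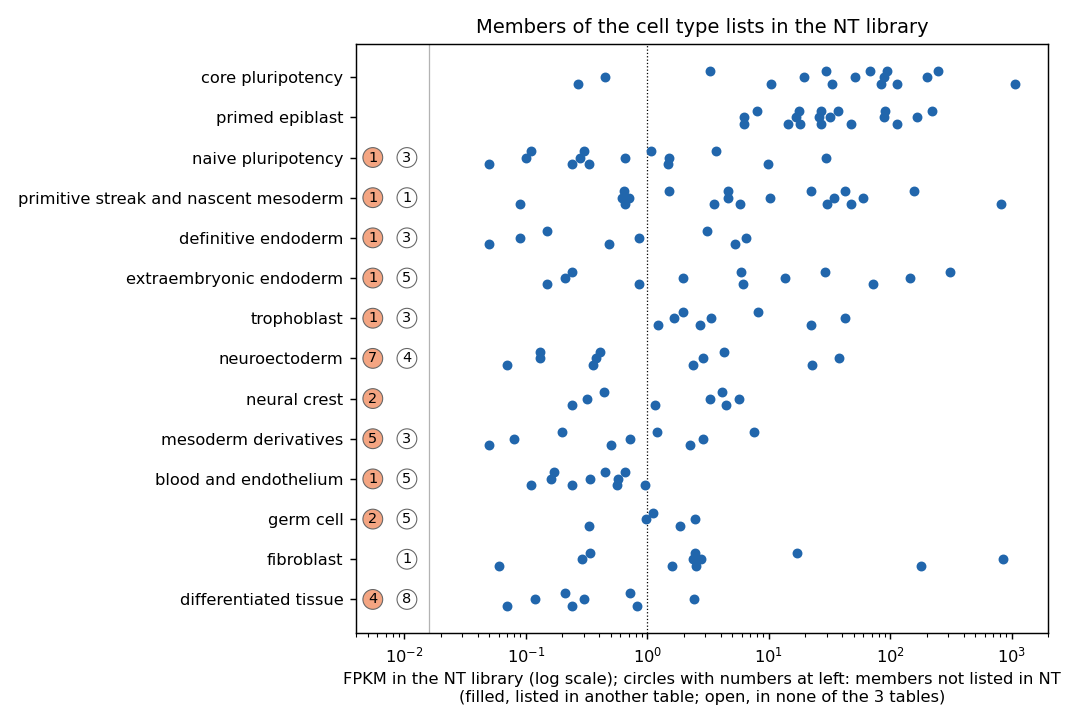
FPKM (horizontal, log scale) of each listed member of 14 cell type lists, with a dotted line at 1 FPKM, and at left the number of members with a count of 0 in NT (filled circles) or with no row in the tables used (open circles). All 18 primed epiblast genes lie right of the line, and no blood and endothelium gene does.

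Of the lineage lists, that of the streak and early mesoderm had the largest number of members present, 14 of 21 at 1 FPKM or more and 9 at 10 or more. Its share was the same as in the trophoblast and fibroblast lists, with 8 of 12 each. T (808 FPKM) was far above the rest and 19.2 times Eomes (17.9 to 20.6), the T-box factor needed for endoderm and mesoderm, at 42.2. The growth factor gene Fgf8 was at 157 and Wnt3, which starts the streak in the embryo, at 47.8. The homeobox genes Nkx1-2, Evx1 and Cdx2, of the posterior epiblast and tail bud, were at 59.1, 29.9 and 22.04, and Msgn1, a factor of presomitic mesoderm, was at 34.6 (108 counts). Other members of the list were lower: Gsc was at 5.79, Mixl1 at 4.6 (3.52 to 5.91) and Lhx1 at 4.58, Mesp1 at 0.64 with 4 counts, Tbx6 at 1.51 and Wnt3a at 0.62. Cdx4 had a count of 0.

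Few genes of the lists of definitive endoderm, neuroectoderm, mesoderm derivatives, blood and endothelium, and differentiated tissues were present. Of 12 definitive endoderm genes 3 were at 1 FPKM or more, the pioneer factor Foxa2 at 6.45, Hhex at 5.27 and Trh at 3.12; Gata6 was at 0.86, Cer1 had a count of 0, and Sox17 had no row in the tables used. Of 22 neuroectoderm genes 5 reached 1 FPKM, namely the intermediate filament gene Nes (37.9), the tubulin gene Tubb3 (22.6), Olig2 (4.28), Map2 (2.88) and Gbx2 (2.36), while Sox1 was at 0.13 (3 counts) and Pax6 and Neurog2 had counts of 0. Of 17 genes of mesoderm derivatives 4 did, with Isl1 the highest at 7.59. Of 16 blood and endothelium genes none reached 1 FPKM, the highest being the receptor gene Tek at 0.95 (26 counts), and 4 would do so at a threshold of 0.5. Of 20 genes of differentiated tissues only Mbp did, at 2.4 from fractional counts, and the astrocyte gene Gfap and the cardiac troponin gene Tnnt2 had counts of 0.

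Germ cell, neural crest and trophoblast genes at 1 FPKM or more were mostly under 10 FPKM. Of 12 germ cell genes 3 passed 1 FPKM, with Kit at 2.47, Dnd1 at 1.87 and Prdm1 at 1.12. Of 10 neural crest genes 5 did, none above Msx1 at 5.66. Of 12 trophoblast genes 8 did, but the highest, Eomes (42.2) and Cdx2 (22.04), are also streak genes; Tfap2c was at 8.18 and Gata3 at 1.22 (0.773 to 1.83).

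Of 18 extraembryonic endoderm genes 8 passed: the matrix and lipid transport genes Sparc at 308, Apoe at 144, the laminin Lamb1 at 72.4 and the collagens Col4a1 and Col4a2 at 28.8 and 13.7, and lower the hormone receptor gene Pth1r at 6.15, the endocytic adaptor gene Dab2 at 5.85 and the laminin Lama1 at 1.96. Its transcription factors Gata6 and Gata4 were at 0.86 and 0.15, Sox7 had a count of 0, and Ttr, Afp and Hnf4a had no row in the tables used. The fibroblast list was similar, with 8 of 12 at 1 FPKM or more. Vim (837), an intermediate filament gene of many cell types, and Fn1 (179) led it, Col1a1 was at 16.9 and Col1a2 at 2.77, and the collagen gene Col3a1, the proteoglycan gene Dcn and the matrix gene Postn were at 0.34, 0.29 and 0.06. The part of other cell types in these values was not tested.

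Most Hox, Pax and Gata genes, which pattern the embryo and specify lineages, were unlisted or under 1 FPKM, while some other factor families were present in full. Of 39 Hox genes 25 were listed and 5 reached 1 FPKM, among them Hoxb1 at 11.8 (9.98 to 14.0), Hoxb9 at 1.87, Hoxd1 at 1.66 and Hoxb2 at 1.39; 2 were at 2 FPKM or more. The share at 1 FPKM or more, 12.8% of the family, was below the 50.7% of all protein-coding genes. Of 9 Pax genes only Pax8 was listed, at 0.2, and of 6 Gata genes only Gata3 reached 1 FPKM. In the Sox family 7 of 20 did, with Sox4 at 46.7, Sox11 at 16.8 and Sox3, the X-linked relative of Sox2, at 6.23. All 4 Sall genes, all 11 Meis and Pbx class genes, all 10 E2f and E2f partner genes, all 11 genes of the Myc and Max network and all 4 Tead genes were at 1 FPKM or more. Tead2 was 7.27 times Tead1 (6.78 to 7.80).

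Some genes of each step of FGF signalling, from ligand to target, were at 1 FPKM or more. In this pathway FGF ligands bind receptor tyrosine kinases and activate the Ras, Raf and ERK cascade, and ERK activity induces feedback inhibitors and the ETS factors Etv4 and Etv5. Of 22 FGF genes 6 (27.3%) reached 1 FPKM, below the 50.7% of all protein-coding genes. Fgf8 was the highest at 157 (147 to 167), 19.8 times Fgf5 (16.3 to 24.2), followed by Fgf13 (5.87), Fgf17 (3.51), Fgf15 (1.73) and Fgf4 (1.08). Among receptors Fgfr1 stood at 52.5, which was 23.7 times Fgfr3 (18.0 to 32.0), while Fgfr2 was at 1.27 and Fgfr4 at 0.16. All 13 signal transducers were at 2.74 or more, with the ERK gene Mapk3 at 66.9. All 9 feedback genes were at 9.33 or more, led by the ERK phosphatase Dusp6 at 124 and by Etv5 at 114; Etv5 was 2.39 times Etv4 (2.20 to 2.61).

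Nodal and Activin bind type I and type II activin receptors, Nodal with the co-receptor Tdgf1, and act through Smad2 and Smad3 with Smad4 and the partner Foxh1. Nodal was at 90.0 FPKM (84.7 to 95.5), and its co-receptor Tdgf1 at 248 was 2.75 times higher (2.57 to 2.96). Activin genes were nearly silent, with Inhba at 0.11 and Inhbb at 0.04, each from 1 count, so of the ligands that use these Smads only Nodal and Tgfb1 (35.0) stood above 10 FPKM. Among receptors Acvr2b was at 24.0, Acvr1b at 14.7, Tgfbr1 at 6.13 and Acvr2a at 1.96, so Acvr2b was 12.2 times Acvr2a (9.27 to 16.4). All 4 transducers were listed, with Foxh1 at 60.7, Smad4 at 33.4, Smad3 at 12.6 and Smad2 at 7.37. The secreted Nodal inhibitor Lefty1, itself a Nodal target, was at 15.1 and Lefty2 at 5.96; their counts were fractional, so the split between these closely related genes is uncertain. The Activin binding protein Fst was at 199, 2.21 times Nodal (2.06 to 2.37).

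BMP ligands signal through Smad1 and Smad5. Of the 6 in the list 3 reached 1 FPKM, Bmp4 at 17.7 (15.4 to 20.4), Bmp7 at 2.61 and Bmp2 at 1.30. The list leaves out Bmp8a, which was at 2.27 (31 counts). Of the 20 genes of the Bmp and Gdf family 6 (30%) reached 1 FPKM, below the 50.7% of all protein-coding genes. The receptors Bmpr1a and Acvr1 were at 14.0 and 5.73, and the transducers Smad1 and Smad5 at 11.4 and 10.7. Antagonists reached similar or higher levels: besides Fst, Nog was at 22.5 and Twsg1 at 16.2, while Chrd was at 1.26. The BMP target genes Id1, Id3 and Id2 were at 40.2, 37.4 and 17.5, and 7 of 8 genes in the target list were at 1 FPKM or more.

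**Figure D5:**
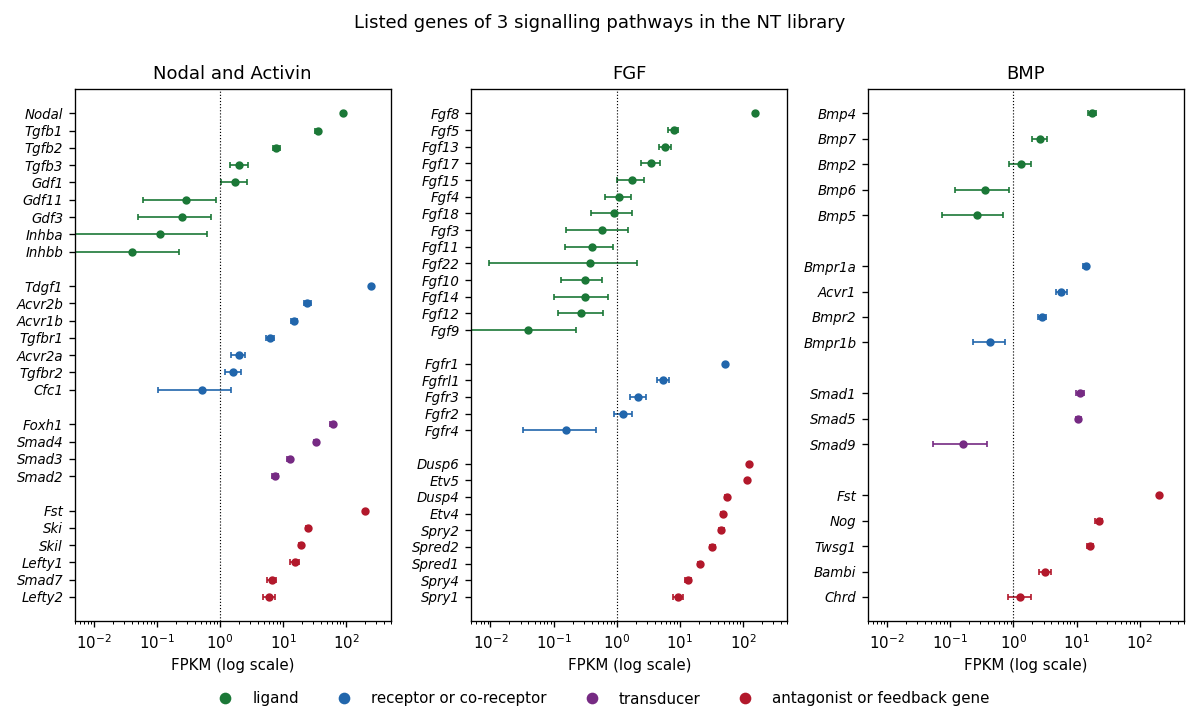
FPKM (horizontal, log scale) with exact 95% Poisson intervals for listed genes of the Nodal and Activin, FGF and BMP pathways, coloured by role, with a dotted line at 1 FPKM. In each pathway 1 ligand leads, with Nodal at 90.0, Fgf8 at 157 and Bmp4 at 17.7, and the activin genes Inhba and Inhbb lie at 0.11 and 0.04.

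Some genes of Wnt ligands, which bind Frizzled and Lrp receptors and stabilise beta-catenin, were also present. Of 19 Wnt genes 10 (52.6%) reached 1 FPKM, near the 50.7% of all protein-coding genes. The highest were Wnt3 at 47.8 (44.7 to 51.1), Wnt8a at 32.0, Wnt5b at 31.5 and Wnt6 at 16.2. Wnt3 was 1.49 times Wnt8a (1.30 to 1.71). All 10 Frizzled genes were at 1 FPKM or more, and 6 at 2 or more. Fzd10 was the highest at 37.5 (34.6 to 40.4), 1.38 times Fzd2 (1.23 to 1.55), and the co-receptors Lrp5 and Lrp6 were at 34.05 and 8.72. Of 11 genes in the list of secreted antagonists only Sfrp2 (4.68), Frzb (4.25) and Sfrp1 (4.15) reached 1 FPKM, while Dkk1 was at 0.48.

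Inside the cell all 8 listed nuclear factors and all 8 listed members of the beta-catenin destruction complex were at 1 FPKM or more. Beta-catenin (Ctnnb1) stood at 232 FPKM, and of the factors it binds on DNA Tcf7 was at 54.1, Lef1 at 17.9, Tcf7l1 at 16.5 and Tcf7l2 at 7.46. The scaffold genes Axin2, a Wnt target, and Axin1 were at 39.2 and 29.9. The targets of IWR1 were unequal: the tankyrase gene Tnks2 was at 76.3 and Tnks at 11.7, a ratio of 6.53 (5.90 to 7.23). The Wnt targets T and Sp5 (808 and 131) are given above. The targets of Y27 lay nearer the median of listed genes (6.16), with Rock2 at 10.5 and Rock1 at 5.07, a ratio of 2.07 (1.74 to 2.47), while the myosin heavy chain gene Myh9 was at 297, the light chain gene Myl12a at 339 and the GTPase gene Rhoa at 141. Myh9 was 3.98 times Myh10 (3.84 to 4.14).

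Of 11 genes of the LIF pathway, on which naive cells depend, 7 were at 1 FPKM or more and 4 above the median of listed genes, with the shared receptor subunit Il6st at 22.1, Jak1 at 11.4, Stat3 at 9.21, the feedback inhibitor Socs3 at 6.80 and the LIF receptor Lifr at 2.10. Of the insulin and IGF list 9 of 12 passed. The binding proteins Igfbp3 (578) and Igfbp2 (312) were above every ligand and receptor of the list, and Igf2 was at 13.4 and Igf1r at 16.0. In Notch signalling Notch3 was the highest receptor at 30.3, 4.52 times Notch1 (4.03 to 5.08), the ligand Jag2 was at 22.5 and the target Hes1 at 40.1. Hedgehog receptors and transducers were listed, with Smo at 40.5 and Ptch1 at 23.9, but the ligand genes Shh and Dhh were at 0.06 and 0.22. In the retinoic acid list the degrading enzyme gene Cyp26a1 (42.7) stood above the synthesising enzyme gene Aldh1a2 (2.68).

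Over the receptor lists and families 191 genes were listed, and 94 (49.2%) were at 1 FPKM or more, below the 74.7% of all listed genes. These lists and families do not include the Hedgehog and Notch lists. They do include G protein-coupled receptors, with 87 listed and 32 at 1 FPKM or more. The olfactory and vomeronasal receptors given below, 8 and 9 listed with 1 of each at 1 FPKM or more, are also among the 191 and lower the share. After Tdgf1 the highest were the pseudokinase gene Ptk7 of planar polarity (184), the integrin subunit genes Itgb1 (112) and Itga3 (55.4), the ephrin receptors Epha1 (94.1) and Epha2 (57.0), the adhesion receptor gene Adgrl2 (67.7), Fgfr1 (52.5), the collagen receptor gene Ddr1 (49.8) and the protease-activated receptor gene F2rl1 (40.2). Of 38 receptor tyrosine kinases, whether listed or not, 20 reached 1 FPKM, near the 50.7% of all protein-coding genes. Over ligands 95 were listed and 61 (64.2%) reached 1 FPKM. The highest were Hdgf (358), which is also a nuclear protein, and the heparin-binding growth factor gene Mdk (351), whose intervals overlap, then Fgf8, Nodal, the progranulin gene Grn (71.5) and Wnt3. The sensory receptor families were nearly empty, with 8 of 1106 olfactory receptor genes and 9 of 353 vomeronasal receptor genes listed and 1 of each at 1 FPKM or more, both from fractional counts: Olfr613 at 4.14 and Vmn1r58 at 5.01.

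The list of epithelial junction genes also holds Vim (837), a mesenchymal intermediate filament gene. Of its 17 genes 15 were at 1 FPKM or more, with the adhesion gene Epcam at 96.4, E-cadherin (Cdh1) at 94.5 (90.7 to 98.3) and the keratins Krt19, Krt8 and Krt18 at 77.0, 65.0 and 33.0. N-cadherin (Cdh2), more often found in mesoderm and neural cells, was at 41.1, so Cdh1 was 2.30 times Cdh2 (2.14 to 2.47). Of 49 keratin genes only these 3 keratins were above 2 FPKM, and among 25 claudins Cldn6, a marker of pluripotent epithelium, was the highest at 26.7. Of the factors of epithelial-mesenchymal transition Snai1 was at 10.3, Zeb2 at 7.58 and Snai2 at 0.44, and the epithelial splicing factor Esrp1 was at 10.7.

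Chromatin and cell cycle genes gave a mixed picture. The maintenance methyltransferase Dnmt1 was at 72.0 and its partner Uhrf1 at 108. Of the de novo enzymes Dnmt3b at 88.0 was 4.93 times Dnmt3a at 17.9 (4.56 to 5.32), and their cofactor Dnmt3l was at 2.69. Of the Tet dioxygenases Tet3 was at 4.87, Tet1 at 4.58 and Tet2 at 0.41. All 11 Polycomb repressive complex 2 genes passed, with the catalytic subunit Ezh2 at 39.9, 6.87 times Ezh1 (5.72 to 8.30). Among cell cycle kinases Cdk4 stood at 418 and Cdk6 at 5.6, a ratio of 74.7 (59.8 to 94.4). Ccnd3 at 89.0 was the highest D cyclin, 1.81 times Ccnd1 (1.66 to 1.97), and Ccnd2 was at 6.95. The cell cycle inhibitor Cdkn1a, a p53 target, was at 106 and the retinoblastoma gene Rb1 at 2.51. Mycn was 2.48 times Myc (2.21 to 2.78).

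Most imprinted genes were present, and Y-linked genes were listed while Xist was near 0. Of 11 maternally expressed genes 10 were at 1 FPKM or more, with Gnas at 578, the placental growth regulator Phlda2 at 111 and the growth inhibitor Grb10 at 106, while H19 was at 2.4. Of 14 paternally expressed genes 10 passed, with the retroelement-derived Peg10 at 181, Snrpn at 145 and Peg3 at 55.99, and Dlk1 was at 0.13. Xist, the RNA that coats the inactive X chromosome, was at 0.03 FPKM with 3.05 counts. The 4 Y-linked genes with a row were at 1 FPKM or more, Eif2s3y at 10.9, Ddx3y at 5.59, Kdm5d at 4.36 and Uty at 2.03, each below its X-linked partner: Ddx3x was 18.1 times Ddx3y (15.3 to 21.4) and Kdm6a 3.88 times Uty (2.93 to 5.22). The Ddx3x and Ddx3y counts were fractional.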

How the data were processed

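The table of the NT library was used for all values. Per the file headers its columns are length, expected count and FPKM, under Entrez gene identifiers. The expected counts deposited by the authors are estimates, in which a read that fits several genes is divided among them, and 80.5% of the values were whole. The FPKM values deposited by the authors were fitted over 3932 genes with high counts and a single transcript. For 100% of these they equal, to within 1%, the count per kilobase of length less 36 bases, at a common scale. Other genes were not checked against this relation. The submitters' processing notes name Bowtie 0.12.2 and mm8. The counting tool and the strand setting are not given in the sources used here, so overlapping and antisense genes cannot be told apart.

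Symbols and gene classes came from a RefSeq table (GRCm38.p6), which matched 15588 identifiers (99.8%). Identifiers without a symbol, 35 in all, held 0.217% of counts. The other 2 tables served only to mark genes at a count of 0. Expected counts were rounded for the intervals. Their coverage was checked only on simulated Poisson counts, which hold no shared reads and no variation between replicates. Members, 55 lists, 62 families and the pairs were chosen with earlier results of these data known. Named genes were the 20 highest with at least 30 counts, the 20 highest transcription factors, the 10 highest receptors and ligands, the members of each list at 1 FPKM or more where there were 6 or fewer and otherwise the 5 highest, up to 4 defining members not listed or under 3 counts, the highest pair of each family and 36 fixed genes. Other members named were chosen after their values were seen. Alternatives were thresholds of 0.5 and 2 FPKM, at least 10 counts, recomputed FPKM, the TPM scale, whole counts only, lengths of at least 500 bases, ranks by CPM and each identifier on its own. Computations ran in Python 3.11.15 (pandas 2.3.3, numpy 2.4.6, scipy 1.17.1) and plots in matplotlib 3.10.9.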

Additional observations from a re-analysis of the deposited data

How the results depend on the processing

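The 11671 genes at 1 FPKM or more stayed within 1.5 times under every alternative tried, as did 49 to 55 of the 55 lists under each. Of the 62 families, 3 moved further than that with a threshold of 0.5 FPKM or on the TPM scale, 8 with 2 FPKM (Frizzled from 10 to 6 genes and Hox from 5 to 2) and 9 with whole counts only (Tead from 4 to 1). With a threshold of 2 FPKM the lists of naive pluripotency, trophoblast and germ cell genes went from 6, 8 and 3 members to 3, 5 and 1. The blood and endothelium list went from 0 to 4 members with a threshold of 0.5 FPKM and on the TPM scale, on which values were 2.02 times higher, and the differentiated tissue list from 1 to 3 under both and to 0 with whole counts only. Of the 20 highest genes 12 remained by CPM, 10 with whole counts only and 17 at 500 bases or more, and the share of the library in its 20 highest genes was 7.88% of counts against 11.2% of FPKM. Of 347 named genes, 142 changed rank by over 1.5 times without division by length. Depth limits low genes: 266 genes at 1 FPKM or more had under 10 counts, and 136 of 172 genes shorter than 200 bases were at 1 FPKM or more with under 30 counts. No paired analysis was possible because there was 1 library per group, and for the same reason no replicate could be left out.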

Other observations

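Noncoding genes held few of the reads. Of 809 long noncoding RNA genes listed, 316 were at 1 FPKM or more, a smaller share than the 74.7% of all listed genes. Their median was 0.6 FPKM, against 6.16 for all listed genes, and they held 0.449% of the counts. The highest with a name were the snoRNA host gene Snhg1 at 53.03 FPKM, Norad, an RNA that binds Pumilio proteins, at 39.95 (37.7 to 42.3) and the nuclear RNA Malat1 at 36.5 from fractional counts. The imprinted RNAs Rian and Meg3 of the Dlk1 locus were at 22.7 and 18.9, while the protein-coding Dlk1 of the same locus was at 0.13. The gene model Gm10845 was listed at 131. These genes, Malat1 apart, were chosen after their values were seen.

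Ribosomal RNA was a small part of the counted reads, with Rn28s1, the 28S ribosomal RNA, at 374 FPKM and 10301 counts of the 0.179% that all ribosomal RNA genes held. Transcribed pseudogenes, 160 listed, held 0.604% of the counts. By FPKM they were led by Gm10052 at 493 and Rpl14-ps1 at 479, both from fractional counts. E030024N20Rik, at 297 FPKM, had more reads than either, with a whole count of 11014. Which copies gave the reads with fractional counts was not tested.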
